A study of Mus musculus with 16 samples.

Results

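Efferent ducts of castrated mice that had received testosterone propionate were compared with efferent ducts of castrated mice that had received estradiol. The comparison used 4 of the 16 arrays of the study, chosen by their labels: 2 arrays of testosterone propionate and 2 of estradiol. Adult male mice of strain 129BL/6 were castrated, left for 14 days, and injected with 0.015 mg of testosterone propionate or 0.015 mg of estradiol in 100 µL of 10% ethanol in sesame oil, and tissue was taken 12 hours later. The other 4 efferent duct arrays came from castrated mice given vehicle and from sham-castrated mice given vehicle, 100 µL of the same oil with ethanol, at the same times, 2 arrays each. The remaining 8 arrays held the same 4 treatments in the caput epididymis, the region that receives the efferent ducts. No group carried a gene deletion. The labels do not say how many animals stand behind an array, so p-values measure only the spread between arrays.

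The efferent ducts are small tubules that carry sperm and fluid out of the testis and take up most of that fluid on the way. Their epithelium holds absorptive principal cells and multiciliated cells. Testosterone is the main androgen of the testis, and estradiol acts mainly through the estrogen receptor encoded by Esr1, which is abundant in this epithelium. In mice without Esr1 the efferent ducts fail to take up the fluid. Testosterone propionate is an ester that releases testosterone in the body, and testosterone can itself be converted to estradiol by aromatase.

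Levels are deposited array intensities on a linear scale, and differences are log2 values, testosterone minus estradiol, after intensities under 16 were set to 16. Each gene was read from its brightest probe set with a single gene symbol, and 13502 of 18194 genes had a mean above 16 in at least 1 of the hormone groups. Of 14 markers of efferent duct principal cells 13 were above 16, Amn being the exception. All 14 together had summed intensities of 5651 and 7975 with testosterone and 5050 and 5873 with estradiol. Esr1, itself a principal cell marker, stood at 1483 and 2099 with testosterone and 1484 and 1720 with estradiol. The 19 measured markers of caput and initial segment epithelium summed to 7859 and 5768 with testosterone and to 3870 and 6194 with estradiol. On the 4 hormone arrays the log2 3' over 5' ratios of actin were 0.913 and 1.93 with testosterone and 1.31 and 1.15 with estradiol. They were 3.11 to 3.87 on the 4 vehicle arrays of the tissue. Testosterone replicate 2 was the highest hormone array in this ratio and in that of Gapdh. Its Gapdh ratio was 1.15, against 0.638 on testosterone replicate 1 and 0.719 and 0.664 with estradiol. Arrays of the same hormone correlated at r = 0.962 for testosterone and 0.971 for estradiol over the genes tested, and their number limits the precision: the median 95% interval of a difference reached 0.53 (log2) to either side.

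In total 166 genes passed limma's test at an adjusted p under 0.05, which is 1.23% of the genes tested. With testosterone 81 genes were higher (0.600%) and 85 were lower (0.630%) than with estradiol. The higher genes differed 1.94- to 13.6-fold with a median of 3.25-fold, and the lower genes 1.92- to 38.9-fold with a median of 3.43-fold. A difference of at least 4-fold was seen in 24 higher and 29 lower genes. For 15 of the higher genes both estradiol arrays were at or under 16, and for 17 of the lower genes both testosterone arrays were, so their folds are lower bounds. In another 7 higher and 14 lower genes 1 of those arrays was, and these folds are lower bounds too. The median difference over all genes tested was 0.05, with 7719 positive and 5783 negative. All 166 had testosterone and estradiol values that did not overlap, as had 42.7% of all genes tested.

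The number of genes called depended on how the spread was estimated. The vehicle arrays enter the estimate of the spread, and a gene at or under 16 on all of them adds none: 25 of 527 such genes passed (4.74%), against 141 of 12975 others (1.09%). A fit of the 4 hormone arrays alone called 58 genes (0.430%), 24 higher (0.178%) and 34 lower (0.252%), of which 48 were among the 166. Without testosterone replicate 1 the count was 37, without testosterone replicate 2 it was 114, without estradiol replicate 1 or 2 it was 22 or 21, and without sham replicate 1 or 2 it was 109. All 166 genes kept their direction in every one of these fits, which was fixed beforehand. Their hormone arrays did not overlap, and the vehicle arrays do not enter the difference. A value under 16 enters each fit as 16. On every array but the estradiol ones Klk1 and Otop1 were under 16, as were Klk1b24, Klk1b5 and Tnnc1 on part of them. Klk1, Otop1 and Klk1b5 were under 16 on both testosterone arrays, so leaving out 1 of these does not change their difference. Outside the estradiol arrays Klk1b24 reached at most 18.7 and Tnnc1 at most 19.7, close to the floor. Passing these fits therefore says less for Klk1, Otop1, Klk1b5, Klk1b24 and Tnnc1. Among the 42 named genes past the threshold, 8 passed in each of the 8 fits that left out 1 efferent duct array: Klk1, Klk1b21, Klk1b24, Klk1b5, Sectm1b, Otop1, Tnnc1 and Slc30a3. Of the other 34, 2 passed in 3 of the 4 fits without a hormone array, 8 in 2, 8 in 1 and 16 in none.

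**Figure D1:**
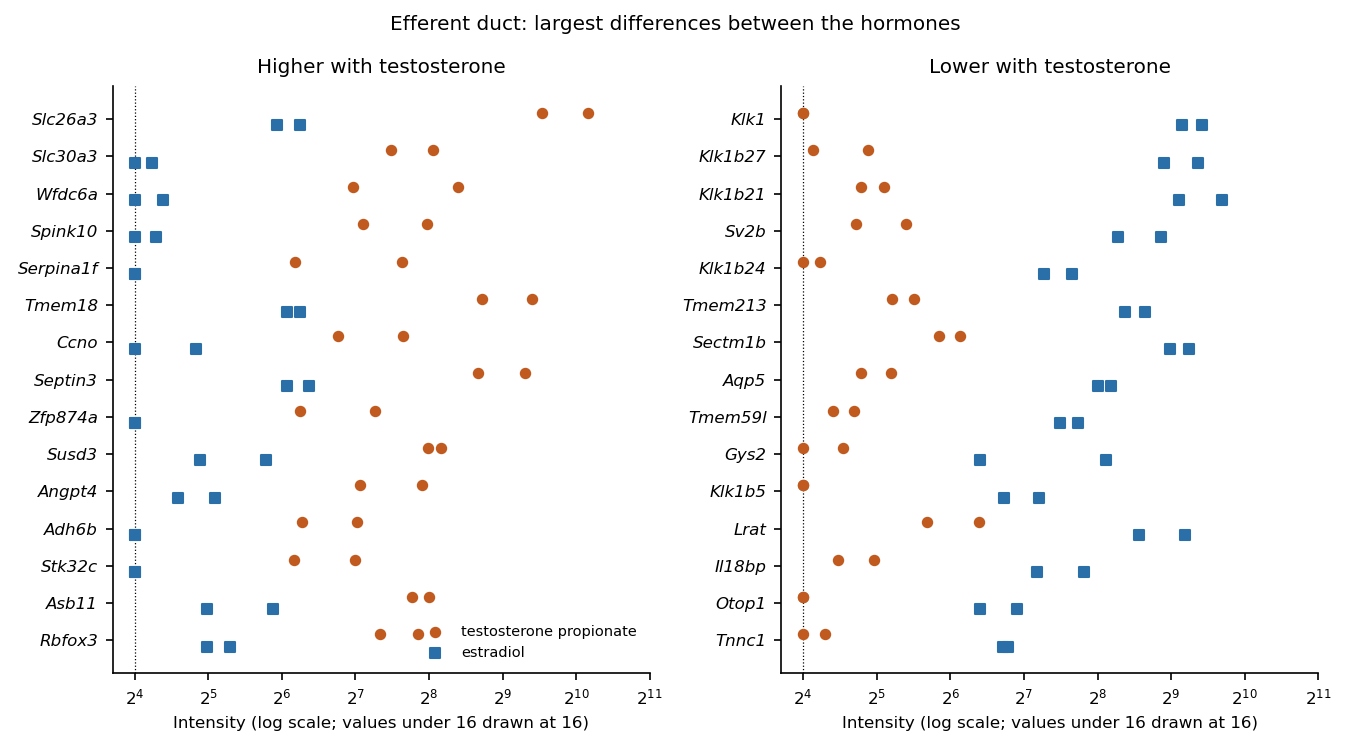
Intensity of the 15 genes with the largest differences in each direction, on a log axis, with 1 point for each testosterone (circles) and estradiol (squares) array. Values under 16 are drawn at the dotted line at 16, where points can lie on top of each other. The 30 genes were chosen among calls whose hormone values do not overlap, which held for 42.7% of all genes tested. Klk1 and Slc26a3 have the largest log2 differences, -5.28 and 3.76.

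**Figure D2:**
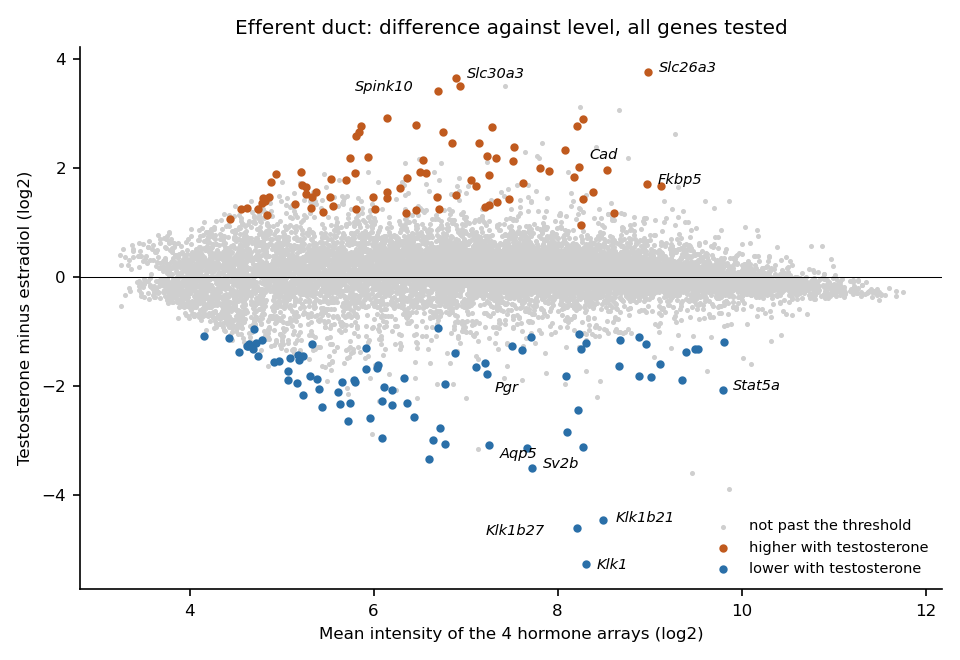
Log2 difference, testosterone minus estradiol, against the log2 mean intensity of the 4 hormone arrays for the 13502 genes tested, with the 81 higher and 85 lower genes in colour. The genes past the threshold occur at both low and high intensities, though not at equal rates. Genes at or under 16 on all 4 vehicle arrays passed more often than others (4.74% against 1.09%).

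The largest differences belonged to tissue kallikreins, secreted serine proteases whose genes lie side by side on chromosome 7. Klk1, which releases kinins from kininogen, stood at 15.3 and 2.66 with testosterone and at 565 and 686 with estradiol. It was at least 38.9-fold lower with testosterone (log2 difference -5.28 ± 0.17 SE, limma adjusted p = 4.16e-05). Every Klk1 value outside the estradiol arrays was raised to the lower limit before the fit. Of its own values only the estradiol arrays therefore contributed spread to this SE and p, which understates the uncertainty. In limma's fit of the hormone arrays alone the adjusted p was 0.00608, with the testosterone arrays again at that limit. The estradiol arrays also stood apart from the vehicle arrays, where Klk1 was at 3.76 and 6.34 after castration and at 7.71 and 12.9 in sham animals. The vehicle arrays had higher 3' over 5' ratios of actin, which limits such comparisons. In the mouse salivary gland several of these genes are known as androgen-induced, and in the rat pituitary gland Klk1 is known as estrogen-induced.

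Klk1b27 had 17.6 and 29.6 with testosterone and 479 and 659 with estradiol (log2 difference -4.62, adjusted p = 0.00152). Klk1b21 had 27.6 and 34.1 with testosterone and 553 and 830 with estradiol (-4.46, adjusted p = 0.00152). Klk1b24 had 14.5 and 18.7 with testosterone and 154 and 201 with estradiol (-3.35, adjusted p = 0.00152). These are mouse-specific copies of Klk1, and in each the 2 estradiol arrays were far above all 6 others of the tissue. Klk1b5 had 11.2 and 8.35 with testosterone and 106 and 148 with estradiol (-2.97, adjusted p = 0.00204), at least 7.83-fold lower. Klk1b1 was the dimmest to pass, at 1.71 and 1.01 with testosterone and 32.3 and 36.2 with estradiol (-1.10, adjusted p = 0.0255). As for Klk1, only the estradiol arrays of Klk1b1 contributed spread to that p. Of the other kallikreins that reached 16, Klk1b8, Klk8 and Klk11 did not pass, at log2 differences of -0.56, -0.51 and -0.23. The copies are similar in sequence, and the probe sets read for Klk1 and Klk1b5 are of a kind that can bind several members of a family, so the signal cannot be assigned to single members with certainty. The other 3 probe sets of Klk1 gave -5.27, -1.42 and -0.19. Klk1b27 lost its call without estradiol replicate 2 (adjusted p = 0.0592), and Klk1b1 without any 1 hormone array (up to 0.123) or sham array (0.0578).

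**Figure D3:**
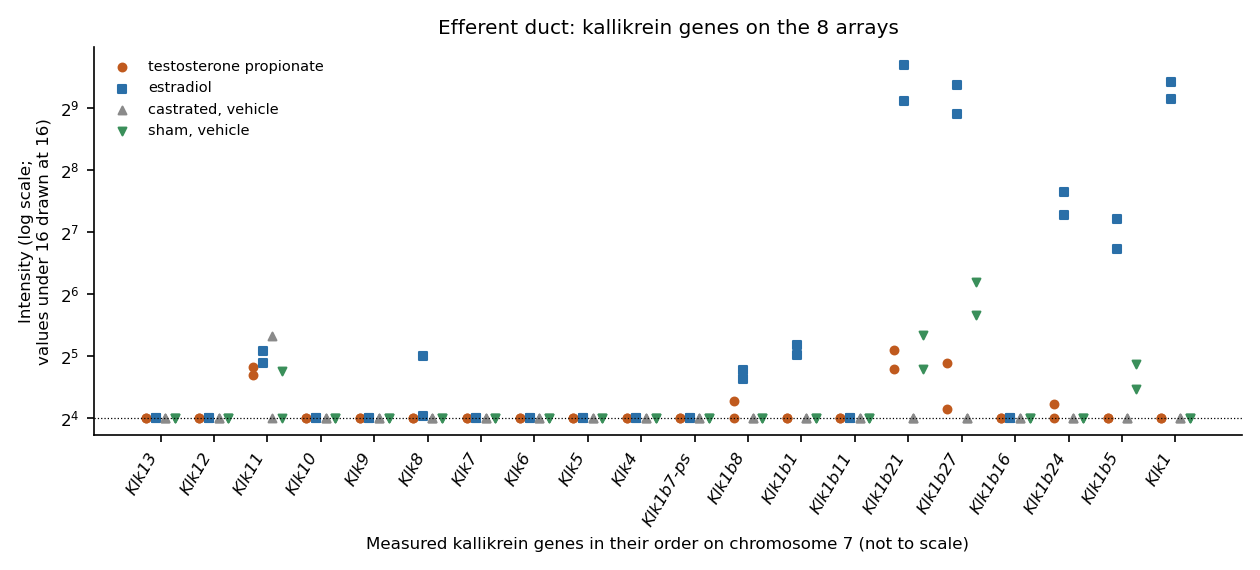
Intensity of the measured kallikrein genes on the 8 efferent duct arrays, on a log axis, in the order of the genes on chromosome 7 (not to scale), with values under 16 drawn at the dotted line. The estradiol arrays stand above the other arrays for Klk1b21, Klk1b27, Klk1b24, Klk1b5, Klk1 and, near the line, Klk1b1.

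The promoters of 5 of the 6 called kallikreins were set side by side, all but that of the dimmest, Klk1b1, to show how alike these copies are. Each line gives 84 bases of the plus strand upstream of the gene's start, from RefSeq (GRCm38.p6), and the capitals mark the longest stretch found in all 5 upstream sequences of 250 bases.
Klk1, chr7:44225213-44225296: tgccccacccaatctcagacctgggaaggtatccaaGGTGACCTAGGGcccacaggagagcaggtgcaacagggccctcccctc
Klk1b5, chr7:44216235-44216318: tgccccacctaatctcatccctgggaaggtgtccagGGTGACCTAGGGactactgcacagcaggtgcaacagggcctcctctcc
Klk1b24, chr7:44188010-44188093: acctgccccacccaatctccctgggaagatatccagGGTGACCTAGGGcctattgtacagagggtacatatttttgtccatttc
Klk1b27, chr7:44052076-44052159: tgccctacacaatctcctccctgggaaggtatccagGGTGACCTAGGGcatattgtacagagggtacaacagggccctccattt
Klk1b21, chr7:44102101-44102184: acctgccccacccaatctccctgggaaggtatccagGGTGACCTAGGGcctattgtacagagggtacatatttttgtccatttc

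The shared stretch of 12 bases began 111 bases before the start of Klk1 and 155 to 203 bases before the starts of the other 4 genes. Searched on both strands, it occurred in 9 of 32851 promoters of 300 bases (0.0274%), and 8 of those belong to this gene family, which has 14 genes in the promoter table. The 5 genes printed here hold it because it was chosen from them, so their match is no finding. The other 4 measured members in that table did not hold it: Klk1b1, which was also called lower, Klk1b8, which did not pass, and Klk1b11 and Klk1b16, which were under 16. Over the 84 bases, read without gaps, the Klk1b5 window matched that of Klk1 at 69 positions, Klk1b27 at 66, Klk1b21 at 47 and Klk1b24 at 46. The stretch contains the letters TGACC, the reverse complement of GGTCA, which by themselves occurred on either strand in 43.6% of 27025 genes. A match is a description of these letters and not a binding site.

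Among genes of fluid and ion transport, the main task of this epithelium, 25 of 32 listed were above 16. Slc26a3 was higher and Aqp5 lower with testosterone (8%), and 23 did not pass. Counts in this and the following lists stand beside 1.23% of all genes tested, and with so few calls the share of a list is coarse. The list's median difference was 0.43, with 18 positive and 7 negative, beside 0.05 over all genes tested. Slc26a3, which exchanges chloride for bicarbonate across the apical membrane, was at 741 and 1147 with testosterone and 60.9 and 75.6 with estradiol. It had the largest positive difference of all genes that passed, 13.6-fold (log2 difference 3.76 ± 0.52 SE, adjusted p = 0.0226). Its 4 probe sets gave 3.16 to 3.94. The call of Slc26a3 was lost without any 1 of the 4 hormone arrays, with a highest adjusted p of 0.275, while the difference stayed between 3.45 and 4.08.

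Slc9a3, the sodium-proton exchanger that drives sodium and water uptake in the efferent ducts, had 195 and 444 with testosterone and 25.1 and 26.9 with estradiol. The arrays did not overlap, but the difference of 3.50 ± 0.64 SE did not pass (adjusted p = 0.0537, and 0.0469 in the fit of the 4 hormone arrays). Scnn1a, a subunit of the epithelial sodium channel, had 91.7 and 170 with testosterone and 20.8 and 41.0 with estradiol and did not pass either (2.10, adjusted p = 0.0827).

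Aqp5, a water channel of secretory glands, ran the other way. It was at 27.6 and 36.8 with testosterone and 256 and 290 with estradiol, 8.56-fold lower (log2 difference -3.10 ± 0.38 SE, adjusted p = 0.0145), and lost its call without any 1 of the hormone arrays. Both estradiol arrays were above all other efferent duct arrays, which reached at most 36.8. Aqp1 and Aqp9, the water channels known from the efferent duct epithelium, did not pass: Aqp1 had 594 and 755 with testosterone and 642 and 467 with estradiol (95% interval of the difference -0.27 to 0.85). Aqp9 had 95.1 and 180 with testosterone and 56.4 and 87.6 with estradiol (0.02 to 1.77). Cftr, a chloride channel, had 102 and 213 with testosterone and 59.0 and 86.4 with estradiol (0.06 to 2.03, adjusted p = 0.362). Lrp2, the endocytic receptor of the apical surface, had 298 and 588 with testosterone and 313 and 381 with estradiol (-0.51 to 1.06).

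**Figure D4:**
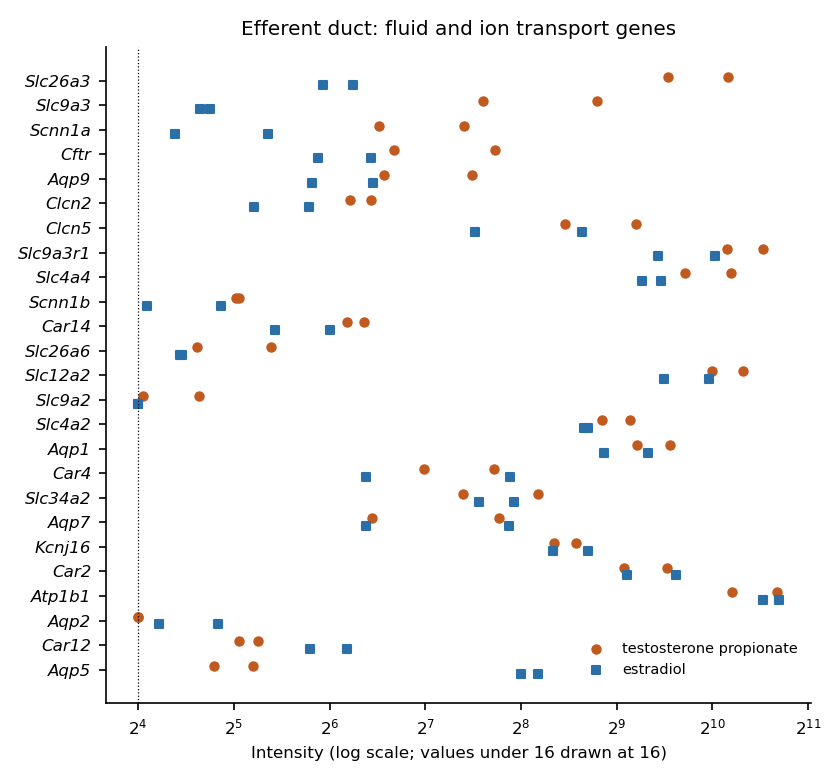
Intensity of the 25 fluid and ion transport genes above 16, on a log axis, with 1 point per testosterone (circles) and estradiol (squares) array, ordered by the difference. The hormones lie far apart for Slc26a3 and Slc9a3 at the top and for Aqp5 at the bottom, while the genes between them lie closer together.

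Hormone receptors and their textbook targets were read next. Pgr, the progesterone receptor and a common estrogen-induced gene, was at 57.8 and 77.7 with testosterone and 201 and 264 with estradiol, 3.43-fold lower (log2 difference -1.78 ± 0.22 SE, adjusted p = 0.0150). Its 2 other probe sets were dim, reaching at most 28.4 on these arrays. On the vehicle arrays Pgr stood at 139 and 140 after castration and at 83.1 and 97.9 in sham animals. Calb1, a calcium-binding protein induced by estrogen in the uterus, had 34.6 and 30.3 with testosterone and 97.9 and 102 with estradiol (-1.63, adjusted p = 0.00821). The other probe sets of Calb1 stayed under 16, reaching at most 15.6 on these arrays. Pgr and Calb1 were the only members of the estrogen response list to pass, out of 36 above 16 (5.56%, beside 1.23% of all genes tested). The list had a median of -0.13, with 13 positive and 23 negative.

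Greb1, estrogen-induced in breast cells, did not pass, with 978 and 1380 under testosterone and 1110 and 1470 under estradiol (-0.67 to 0.40). Esr1 did not pass (-0.34 to 0.63), and Esr2, the other estrogen receptor, stayed under 16 on all 4 arrays.

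Fkbp5, a chaperone of steroid receptors that androgens, progestins and glucocorticoids induce, was at 740 and 790 with testosterone and 256 and 217 with estradiol, 3.25-fold higher (log2 difference 1.70 ± 0.26 SE, adjusted p = 0.0308). In the androgen response list 28 of 35 genes were above 16. Fkbp5 and Spink10 were higher and Klk1 was lower (10.7%), and 25 did not pass, with a median of -0.05, 13 positive and 15 negative. Akr1c14, which reduces steroid ketones at carbon 3α, was the single member of 11 steroid metabolism genes to pass (9.09%). It had 30.0 and 20.6 with testosterone and 141 and 157 with estradiol (-2.58, adjusted p = 0.0100). Without any 1 of the 4 hormone arrays Fkbp5 and Akr1c14 did not pass, with adjusted p up to 0.229 and 0.163. Pgr and Calb1 passed without testosterone replicate 2 and not without any of the other 3.

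In the list of protease inhibitors and proteases 22 of 35 genes were above 16. Spink10 was higher and Klk1 lower with testosterone (9.09%) and the others did not pass, with a median of 0.06, 13 positive and 9 negative. Spink10, a Kazal-type inhibitor of the caput, had 252 and 138 with testosterone and 5.37 and 19.5 with estradiol (log2 difference 3.40, adjusted p = 0.00379). Outside that list, 2 genes of inhibitor families were among the 15 largest positive differences. Wfdc6a, of the whey acidic protein inhibitor family, had 337 and 125 with testosterone and 8.77 and 20.8 with estradiol (3.49, adjusted p = 0.0117). Serpina1f, a serpin, had 72.5 and 199 with testosterone and 2.70 and 9.52 with estradiol, at least 7.50-fold higher (adjusted p = 0.0230). In sham animals Spink10 stood at 2535 and 2052, Wfdc6a at 534 and 471, and Serpina1f at 624 and 515. All 3 lost their call without estradiol replicate 1 or 2, and Serpina1f also without castrated replicate 1 or 2 (adjusted p = 0.0527).

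Other caput transcripts varied between arrays of the same hormone. Gpx5, an epididymal glutathione peroxidase, had 676 and 18.4 with testosterone and 61.3 and 448 with estradiol. Cst11, a cystatin, had 549 and 8.15 with testosterone and 44.0 and 561 with estradiol. The high array was testosterone replicate 1 in one group and estradiol replicate 2 in the other. Adam7 had 1007 and 105 with testosterone and 13.8 and 88.6 with estradiol and did not pass (3.11, adjusted p = 0.269). Spink10 was the only called gene among the 13 caput markers above 16, whose median was 0.39. The 12 beta-defensins above 16, small antimicrobial peptides of the epididymis, were all positive with a median of 1.27, and none passed. A member at or under 16 on both estradiol arrays enters only through testosterone and is then positive, so the filter can fix part of this count. The summed intensity of all 16 measured beta-defensins was 4617 and 2866 with testosterone and 502 and 1989 with estradiol. The part that an unequal amount of epididymal tissue may have in these differences was not tested, and in tissue samples fewer cells of a type and less RNA per cell cannot be told apart.

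Slc30a3, a zinc transporter of vesicles, had 179 and 266 with testosterone and 13.6 and 18.9 with estradiol, at least 12.5-fold higher (log2 difference 3.65 ± 0.23 SE, adjusted p = 0.00152). Ccno, which drives the formation of many cilia in a cell, had 200 and 109 with testosterone and 15.6 and 28.5 with estradiol (2.79, adjusted p = 0.0217). The 23 multiciliated cell markers had a median of 0.35 with 22 positive, and Ccno alone passed. Foxj1, the defining transcription factor of these cells, had 427 and 531 with testosterone and 250 and 332 with estradiol (adjusted p = 0.280). Slc30a3 passed without any 1 array, while Ccno did not pass without any 1 hormone array.

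The other large positive differences lay between 2.45 and 2.90. Septin3, a septin of the cytoskeleton, had 405 and 630 with testosterone and 82.7 and 67.1 with estradiol. Tmem18 had 421 and 675 with testosterone and 66.9 and 76.2 with estradiol. On the vehicle arrays Tmem18 read 660 to 1199. Susd3, Angpt4, Asb11 and Rbfox3 were 6.68-, 6.27-, 5.49- and 5.47-fold higher with testosterone. Zfp874a, Adh6b, an alcohol dehydrogenase, and the kinase gene Stk32c were at least 6.78-, 6.27- and 5.97-fold higher, with both estradiol arrays at or under 16. Septin3, Tmem18, Angpt4, Asb11 and Rbfox3 did not pass without any 1 of the hormone arrays, Susd3 without testosterone replicate 1 or 2, and Zfp874a, Adh6b and Stk32c without estradiol replicate 1 or 2.

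Genes of the synthesis of nucleotides were represented by Cad and Mthfd2 among 21 above 16 (9.52%). Cad, which carries out the opening steps of pyrimidine synthesis, had 545 and 420 with testosterone and 122 and 115 with estradiol, 4.04-fold higher (log2 difference 2.01 ± 0.21 SE, adjusted p = 0.00790). Mthfd2, a mitochondrial enzyme of folate metabolism, had 598 and 580 with testosterone and 127 and 180 with estradiol (1.96, adjusted p = 0.00790). The list's median was 0.00, with 10 positive and 11 negative. Slc1a5, a glutamine carrier, was lower with testosterone, 247 and 200 against 920 and 694 with estradiol (-1.85, adjusted p = 0.0270), and was the only call among 15 genes of amino acid transport and synthesis. Without a hormone array Cad passed only when testosterone replicate 2 was left out, Mthfd2 only when estradiol replicate 2 was, and Slc1a5 never. Slc1a5 did not pass without castrated replicate 1 or 2 either (adjusted p = 0.0540).

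Among genes lower with testosterone, Sv2b, a synaptic vesicle protein, had 26.3 and 42.0 with testosterone and 312 and 464 with estradiol (log2 difference -3.52, adjusted p = 0.00780). Sectm1b, a secreted and transmembrane protein, had 57.3 and 70.4 with testosterone and 506 and 609 with estradiol (-3.13, adjusted p = 0.00154). Tmem213 had 37.1 and 45.4 with testosterone and 332 and 400 with estradiol (-3.15, adjusted p = 0.00379). In each the dimmer estradiol array was far above the brighter testosterone array. Sectm1b passed without any 1 array, and Sv2b and Tmem213 kept their call without testosterone replicate 2 alone of the hormone arrays.

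Lrat, which stores retinol as retinyl esters, had 51.4 and 83.7 with testosterone and 379 and 585 with estradiol (-2.84, adjusted p = 0.00821). Gys2, a glycogen synthase known from liver, had 23.3 and 14.7 with testosterone and 277 and 84.8 with estradiol (-2.99, adjusted p = 0.0366). Il18bp, a secreted decoy for interleukin 18, had 31.1 and 22.2 with testosterone and 145 and 225 with estradiol (-2.78, adjusted p = 0.00489). Otop1, a proton channel, was at least 6.30-fold lower with testosterone, and Tnnc1, a troponin C, at least 6.05-fold. Tmem59l was 8.38-fold lower. Otop1 and Tnnc1 passed without any 1 array and Il18bp without any but estradiol replicate 2. Tmem59l did not pass without estradiol replicate 1 or 2. Of the 4 fits without a hormone array, Lrat passed only in that without testosterone replicate 2, and Gys2 only in that without estradiol replicate 2. Gys2 did not pass without any 1 of the vehicle arrays (adjusted p up to 0.0747).

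Among signalling genes, Vegfa, an endothelial growth factor, had 70.2 and 62.7 with testosterone and 227 and 193 with estradiol (log2 difference -1.66, adjusted p = 0.0208). Ier3, an immediate early gene, had 333 and 221 with testosterone and 811 and 841 with estradiol (-1.61, adjusted p = 0.0267). Socs2, a feedback inhibitor of cytokine and growth hormone signalling, had 431 and 322 with testosterone and 990 and 941 with estradiol (-1.37, adjusted p = 0.0466). Each was the only call in its list, among 38 growth factors and receptors, 24 immediate early genes and 21 cytokine genes, whose medians were 0.00, -0.27 and -0.34. Irf7, a transcription factor of the interferon response, was higher with testosterone, 117 and 109 against 52.8 and 47.9 with estradiol (1.17, adjusted p = 0.0255), the only call among 23 interferon and antigen presentation genes. None of these 4 genes passed when any 1 hormone array was left out, and Ier3, Socs2 and Irf7 did not pass without sham replicate 1 or 2 (adjusted p up to 0.0825).

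Outside the lists, 4 genes were picked after their values had been seen. Stat5a, a transcription factor activated by prolactin and growth hormone, had 379 and 306 with testosterone and 1397 and 1471 with estradiol (-2.07, adjusted p = 0.00790). Its neighbour Stat5b had 221 and 162 with testosterone and 414 and 468 with estradiol (-1.22, adjusted p = 0.0463). Oxtr, the oxytocin receptor, had 198 and 381 with testosterone and 1035 and 1005 with estradiol (-1.89, adjusted p = 0.0451). On the vehicle arrays Oxtr read 1245 and 877 after castration and 448 and 374 in sham animals. In the other direction Pdzk1, a scaffold protein of apical transporters, had 343 and 372 with testosterone and 76.4 and 104 with estradiol (2.00, adjusted p = 0.0145). None of these 4 genes passed without any 1 of the hormone arrays, except Oxtr without testosterone replicate 2, and Stat5b and Oxtr did not pass without any 1 vehicle array (adjusted p up to 0.0783 and 0.0763).

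No call fell in 27 of the 44 lists, among them those of endocytosis, cholesterol synthesis, folding in the endoplasmic reticulum, the cell cycle and the respiratory chain. The 27 genes of oxidative phosphorylation had a median of -0.20 with 24 negative, and the 25 of ribosome biogenesis a median of -0.19 with 21 negative. The 6 markers of mesothelium, the lining around the organ, summed to 2147 and 1692 with testosterone and to 1045 and 1116 with estradiol. Lrrn4 alone of the 5 above 16 passed (1.47, adjusted p = 0.0181). The summed intensity of the 20 germ cell markers was set apart by 1 array, at 3735 and 1046 with testosterone and 1189 and 1131 with estradiol. Prm1, a protamine, had 1043 and 73.3 with testosterone and 227 and 76.0 with estradiol. All 19 markers above 16 were positive, with a median of 0.75, and none passed. For a marker at or under 16 on both estradiol arrays the filter fixes a positive sign, as for the beta-defensins. Macrophage, lymphocyte, endothelial, smooth muscle, fibroblast and fat cell markers held no call.

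The caput of castrated mice had received the same hormones at the same dose and time, and its arrays were labelled with another kit. The study's design states that both tissues were collected from each sample, so the tissues are not independent. On the same genes 1070 passed in the caput (7.92%), 527 higher (3.90%) and 543 lower (4.02%). Of the 166 efferent duct genes 61 also passed there, 21 higher and 40 lower with testosterone, all in the same direction, which is 36.7% of the efferent duct calls and 5.70% of the caput calls. Sectm1b, Tmem213, Spink10, Ccno, Cad and Fkbp5 were among them, with caput log2 differences of -3.85, -3.26, 2.71, 2.92, 3.28 and 1.86. Another 20 were at or under 16 on all 4 caput hormone arrays, 7 higher and 13 lower.

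The difference between tissues was tested in a limma fit of all 16 arrays that took them as independent. In total 128 genes passed (0.948%), 68 with a higher value in the efferent duct (0.504%) and 60 with a lower (0.444%), of which 42 had passed in the efferent duct. A fit chosen after seeing the data, which paired efferent duct and caput arrays of the same treatment and number, called 22 (0.163%), 11 with a higher value in the efferent duct (0.0815%) and 11 with a lower (0.0815%), of which 20 were among the 128. The floor bears on these values too: 56 of the 128 had at least 1 hormone array at or under 16, and with no floor 11 genes were called. Slc30a3 had 61.3 and 117 with testosterone and 67.2 and 41.5 with estradiol in the caput, a log2 difference of 0.68. Its value between tissues of 2.96 passed in the unpaired and the paired fit (adjusted p = 0.0175 and 0.0444) and not with no floor (3.08, adjusted p = 0.0678). Klk1 in the caput had 4.60 and 0.687 with testosterone and 80.5 and 67.4 with estradiol. Testosterone arrays were under 16 in both tissues, so the efferent duct and caput log2 differences of Klk1, -5.28 and -2.20, are both bounds. Their difference of -3.08 (adjusted p = 3.76e-05, and 0.00985 in the paired fit) compares only the estradiol levels of the tissues, and with no floor it was -1.24 (adjusted p = 0.846). For Slc26a3 the caput showed 686 and 664 with testosterone and 233 and 212 with estradiol, and the difference between tissues of 2.16 did not pass (adjusted p = 0.119). Without caput testosterone replicate 1 or 2, caput estradiol replicate 1 or efferent duct estradiol replicate 2 the 128 became 34, 25, 51 or 286, and a fit of the 8 hormone arrays alone called 7.

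**Figure D5:**
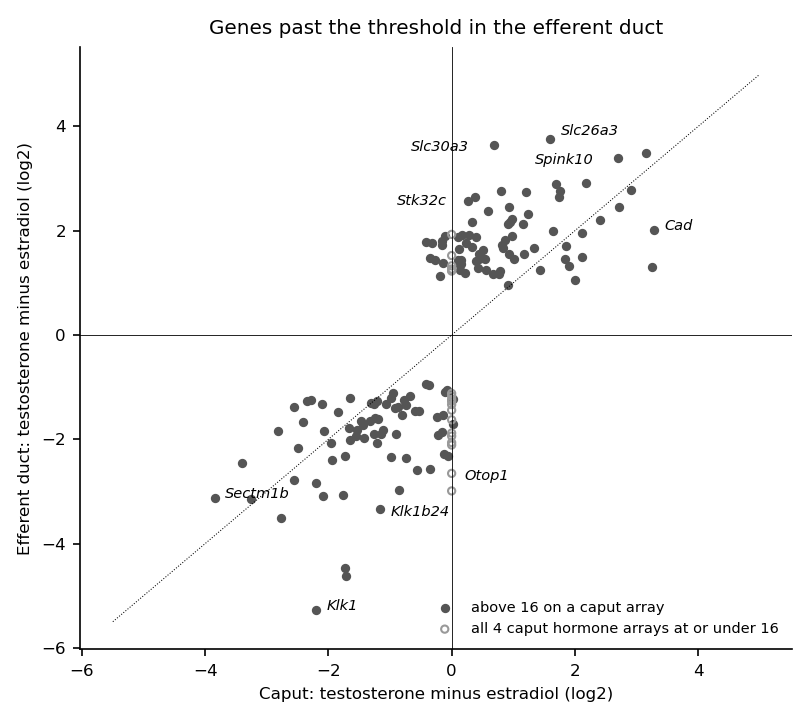
Log2 difference, testosterone minus estradiol, in the efferent duct (vertical) and in the caput (horizontal) for the 166 genes past the threshold in the efferent duct, with a dotted line where both are equal. Open circles are the 20 genes at or under 16 on all caput hormone arrays, and the kallikreins lie below the line on this scale, where values under 16 are set to 16.

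Promoters of the called genes were searched for hormone receptor motifs in RefSeq's windows of 250 bases before and 50 after each gene's start. The estrogen response element GGTCANNNTGACC occurred in 20 of 27025 genes (0.0740%) and the androgen response element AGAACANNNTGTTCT in 3, and neither occurred in the called genes found in the table, 71 higher and 64 lower. The shorter estrogen motif, GGTCA on either strand, was present in 45.1% of the higher genes and 53.1% of the lower genes, beside 43.6% of all genes. The lower genes include Klk1, Klk1b5, Klk1b21, Klk1b24 and Klk1b27, whose similar promoters all hold this motif. They are counted as separate genes, which raises the share of the lower genes. The shorter androgen motif, AGAACA on either strand, was present in 19.7% of the higher genes and 15.6% of the lower genes, beside 21.3% of all genes. No match in this window says nothing about binding elsewhere.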

How the data were processed

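The study used 16 Affymetrix arrays of 1 colour with 45101 probe sets. Per the labels' protocols, efferent duct RNA (50 ng) went through the Ovation amplification kit and caput RNA (10 µg) through another kit. The deposited intensity values were linear. RMA is named in the submitters' processing notes, but the values were not on a log scale and array means were 125 once 2% was trimmed at each end, so they were used as linear intensity.

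Probe sets were named from the platform annotation (34958 with 1 symbol, 932 with several, 9211 with none). Log2 of the larger of the intensity and 16 was fitted with limma 3.58.1 (R 4.3.3) over the 8 efferent duct arrays in 4 groups, or all 16 arrays for tissue differences, with Benjamini-Hochberg adjustment over all genes tested. The fit was tested on simulated data. Tables used Python 3.11.15 and pandas 2.3.3.

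The genes named were the 15 largest differences each way among calls whose values did not overlap, up to 4 called members per list, 12 fixed genes (1 is not reported here) and the 5 largest tissue differences each way. The 44 lists and the members were chosen with earlier results of these data known. Alternatives were other floors, filters, normalizations, probe set choices and array sets, a replicate block, and each array left out. Replicate numbers were not taken to pair samples: the labels do not tie them to a batch, and deviations of same-numbered testosterone and estradiol arrays correlated at 0.096. The design text says that both tissues were collected from each sample, and deviations of same-numbered efferent duct and caput arrays correlated at -0.00443 to 0.0915 over the 4 treatments. A fit with these arrays as pairs was added after seeing the data.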

Additional observations from a re-analysis of the deposited data

Results flagged for a closer look

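For 18 named genes the difference between testosterone and estradiol was not the same in both tissues by limma's interaction test over 16 arrays (adjusted p under 0.05). Values here are the efferent duct log2 difference minus the caput log2 difference, each testosterone minus estradiol. The tissues were labelled with different kits, and the part of the kit was not tested. None of the 18 passed with no floor, and 10 passed when efferent duct and caput arrays of the same treatment and number were paired. Where arrays under 16 were set to 16, the value between tissues depends on that floor.

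The kallikreins had negative differences in both tissues, which did not pass in the caput for Klk1b21. The values between tissues were -3.08 for Klk1, -2.91 for Klk1b27, -2.74 for Klk1b21, -2.18 for Klk1b24 and -2.11 for Klk1b5. Caput testosterone was under 16 on both arrays for Klk1, Klk1b27 and Klk1b24 and on 1 array for Klk1b21 and Klk1b5, and efferent duct testosterone was under 16 on both arrays for Klk1 and Klk1b5 and on 1 for Klk1b24. The sizes are therefore set in part by the floor, and with no floor they were -1.24 for Klk1, -0.96 for Klk1b27, -1.87 for Klk1b21, -2.13 for Klk1b24 and -2.31 for Klk1b5. Tnnc1 (-2.04) and Akr1c14 (-2.24) were called lower in the efferent duct, with caput differences of -0.56 and -0.34 that did not pass and with both caput testosterone arrays under 16. With no floor their values between tissues were -1.72 and -1.64. Gys2 (-2.99), Otop1 (-2.65) and Calb1 (-1.63) were at or under 16 on all 4 caput hormone arrays, so their value is that of the efferent duct alone. Slc30a3 (2.96) and Stk32c (2.31) were called higher in the efferent duct and did not pass in the caput, and with no floor their values between tissues were 3.08 and 1.42.

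In the other 6 genes the efferent duct difference did not pass and the caput difference did. Hpdl had 40.1 and 21.3 with testosterone and 2.88 and 0.346 with estradiol in efferent ducts, and 441 and 412 with testosterone and 12.6 and 9.75 with estradiol in the caput. Estradiol arrays were under 16 in both tissues, so both differences are bounds. Its value between tissues of -3.87 compares only the testosterone levels, and with no floor it was -0.39 (adjusted p = 0.933). Alpl, an alkaline phosphatase, had -1.91 in efferent ducts, against 1.17 in the caput (-3.07 between tissues). Cftr had 1.05 in efferent ducts, against -1.56 in the caput (2.60 between tissues). Vnn1 (3.33), H2-DMb2 (3.25) and Stra6 (2.77), a retinol transporter, were lower with testosterone in the caput.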

How the results depend on the processing

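The 166 calls of the efferent duct comparison became 108 with a floor of 8, 44 with no floor, 69 with no filter on low values, 103 with all 4 hormone arrays above 16, 58 with only the 4 hormone arrays and 640 with all 16 arrays in 1 fit. They ranged over 21 to 116 when 1 array was left out. With the replicate number as a block they were 133. Chosen after seeing the data, an intensity trend in the fit of the 4 hormone arrays gave 83 and a fit of the 8 hormone arrays of both tissues 416. Centring each array on its median gave 61 higher and 104 lower, against 81 and 85, and shifted the median of all genes to -0.07. With no filter the calls were 21 higher and 48 lower. The 42 named calls kept their direction in each setting that tested them, and 24 passed with only the 4 hormone arrays. With 1 array left out or with only the 4 hormone arrays their direction could not turn, because their hormone values did not overlap. The 128 calls of the tissue difference became 33 with a floor of 8, 341 with a floor of 32, 11 with no floor, where 8 of the 128 turned direction, all with an array at or under 16 and none of them named here, 213 with no filter, 75 with all 4 hormone arrays above 16, 7 with only the 8 hormone arrays 117 with the replicate block and 22 with efferent duct and caput arrays of the same treatment and number paired, and ranged over 25 to 286 when 1 array was left out. Quantile normalization gave 43 higher and 63 lower and centring 47 higher and 133 lower, against 68 and 60. The cause of these changes was not tested. Among genes that did not pass, the sign turned for Esr1 (-0.11) and Lrp2 (-0.22) without testosterone replicate 2, for Greb1 without testosterone replicate 1 (0.11) or estradiol replicate 2 (0.07), and for Stra6 without testosterone replicate 2 (0.26) or estradiol replicate 2 (0.48). With 1 array left out their values ranged over -0.11 to 0.39 (Esr1), -0.22 to 0.77 (Lrp2), -0.39 to 0.11 (Greb1) and -0.64 to 0.48 (Stra6). With 2 arrays a group, differences under about 0.53 on the log2 scale are within the median interval.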
